A study of Arabidopsis thaliana with 12 samples.

Results

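The genes described here are 8 members of the MYC branch of jasmonate signalling in Arabidopsis thaliana, 3 transcription factors (MYC2, MYC3 and MYC4) and 5 genes that jasmonate is known to switch on (VSP1, VSP2, TAT3, CORI3 and CLH1). They were chosen by name, with earlier results of these data known. Each was looked up by its locus in the deposited tables, which together name 27366 loci. Each of the 8 had 1 row of its own, merged with no other gene, in each of the 3 tables. RNA came from whole seedlings, either controls or seedlings kept with volatiles of the fungus Tolypocladium inflatum GT22, at 3, 24 and 48 h. There were 2 libraries in each of 6 groups, and the labels name no accession, mutation or age for any group. Copper and pathogen stress appear in the series title, but no label gives them to a group. The series asked which molecular responses the volatiles trigger.

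Levels are in FPKM, fragments counted relative to transcript length and to all mapped fragments, and the deposited tables hold 1 value per gene and group. How far the 2 libraries of a group lay apart is therefore not visible, no SD can be given, and sequencing depth is unknown. "Rose" and "fell" are used only where the authors' deposited q-value, a p-value adjusted over all tested rows of a table, was under 0.05. The error given beside a log2 fold change is implied by the authors' deposited table, as the fold change divided by the deposited statistic. Some deposited p-values are smaller than this error would give, that of CLH1 at 48 h among them. Others are larger, such as that of TAT3 at 48 h. The tables of the 3 times were made separately, so levels at different times stand side by side and are not compared. Nothing in the labels says that libraries came from separate plantings, so the p-values measure only the spread between these libraries, which may be technical. In bulk RNA, fewer cells of a type and less RNA per cell cannot be told apart.

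Jasmonate is made after wounding, chewing and infection by many fungi. Its active form, jasmonoyl-isoleucine, joins the F-box protein COI1 to JAZ repressors and marks these for destruction, which frees the basic helix-loop-helix factors MYC2, MYC3 and MYC4 to bind the G-box and related sites in target promoters. Genes of this branch are known for defence against chewing insects, whereas a second branch, run by the ethylene response factors ERF1 and ORA59, turns on plant defensins and is held back by MYC2. VSP1 and VSP2 encode vegetative storage proteins with acid phosphatase activity and are the standard markers of the MYC branch. TAT3 encodes a tyrosine aminotransferase, CORI3 a cystine lyase of the same aminotransferase family, and CLH1 a chlorophyllase. CORI3 and CLH1 were both first known as genes induced by coronatine, a bacterial mimic of jasmonoyl-isoleucine.

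The 300 bases before the annotated start of each gene were read from the RefSeq genome TAIR10.1, to show where the words that MYC factors are known to bind lie in front of these genes. The words searched were CACGTG, which is its own reverse complement, CATGTG with its reverse complement CACATG, and AACGTG with its reverse complement CACGTT, so that both strands were covered. No member's window held CACGTG, which was present in 7.09% of 27437 windows of protein-coding genes. At least 1 of the 3 words was present in 4 of the 8 windows and in 25.8% of all windows. CATGTG was present in 13.1% and AACGTG in 8.71% of all windows. GCCGCC, the core of the GCC box of the ERF branch, or its reverse complement GGCGGC, was in no member's window and in 2.26% of all windows. The 5 matches follow with 12 bases on either side, 5′ to 3′ along the gene's own strand and with the matched word in capitals. No match overlapped another.
MYC2 (chr1:11801505-11801534, minus strand): ttagcaacgactCACGTTatatagatatgc
VSP1 (chr5:8509354-8509383, minus strand): gtttatacacatCACGTTttgcattattgt
TAT3, far site (chr2:10585464-10585493, minus strand): gttaagtctattCACGTTttatttaagtta
TAT3, near site (chr2:10585310-10585339, minus strand): tattgatcgtagCATGTGgaaaatgttgat
CLH1 (chr1:6805130-6805159, minus strand): aatttgaatcaaCACATGctcttttgttta

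The match in CLH1 began 55 bases before the annotated start, that in MYC2 115 bases, that in VSP1 170 bases and those in TAT3 111 and 265 bases. The windows of MYC3, MYC4, VSP2 and CORI3 held none of the words. These matches describe letters in a window and are not shown to be sites. The annotated starts are those of RefSeq, which for some members lie upstream of the starts in the authors' tables. RefSeq first, the starts are 11801407 and 11800988 for MYC2, 9935685 and 9935586 for MYC4, and 8509201 and 8508957 for VSP1. They are 12310379 and 12310619 for CORI3, and 6805092 and 6805044 for CLH1. For MYC3 the RefSeq start is 18974022 and the authors' start 18974102 at 3 h and 18974231 at 24 and 48 h. For VSP2 and TAT3 both sources give the same start. The windows were not read again from the authors' starts, so the matches hold for the RefSeq starts only. The window of CORI3 is shown whole, because CORI3 is the member with the larger of the 2 called rises.
CORI3 (chr4:12310079-12310378, plus strand): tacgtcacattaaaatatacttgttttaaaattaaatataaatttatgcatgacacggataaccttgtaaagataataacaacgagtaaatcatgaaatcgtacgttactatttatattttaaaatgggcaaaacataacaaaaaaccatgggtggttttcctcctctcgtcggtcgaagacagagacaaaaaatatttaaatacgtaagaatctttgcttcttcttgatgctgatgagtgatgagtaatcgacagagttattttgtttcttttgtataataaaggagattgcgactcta

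The 3 transcription factors were measured at moderate levels at every time and none was called. MYC2 (AT1G32640, TAIR10.1 chromosome 1, 11798119 to 11801407), the best studied of the 3, stood at 10.03 FPKM in controls and 9.43 FPKM under the volatiles at 3 h, at 9.05 and 8.40 FPKM at 24 h, and at 9.89 and 12.8 FPKM at 48 h. The volatile value was thus slightly below control at 3 and 24 h and above it at 48 h. Its log2 fold change at 48 h was 0.37 with an implied error of 0.27, and the authors' deposited table gave an unadjusted p of 0.0495 and a q of 0.9993. The 95% interval from the implied error, -0.15 to 0.90, included 0. Taking the deposited statistic as a normal deviate gave an unadjusted p of 0.162. Of tested rows with a fold change, 5.65% had a higher log2 fold change than MYC2.

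MYC3 (AT5G46760, chromosome 5, 18974022 to 18976590), which shares JAZ partners with MYC2, stood at 23.7 and 21.7 FPKM at 3 h, 13.6 and 13.3 FPKM at 24 h and 15.9 and 14.4 FPKM at 48 h, control first. MYC4 (AT4G17880, chromosome 4, 9933326 to 9935685), the third of the group, stood at 5.73 and 5.28 FPKM at 3 h, 6.72 and 6.86 FPKM at 24 h and 5.88 and 6.03 FPKM at 48 h. For both genes control and volatile values lay close together at each time. Log2 fold changes ran from -0.14 to -0.03 for MYC3 and from -0.12 to 0.04 for MYC4, each smaller than its implied error. At 48 h the 95% interval was -0.66 to 0.37 for MYC3 and -0.55 to 0.62 for MYC4, so changes of moderate size in either direction are not excluded by these values. All 3 factors have a single exon in RefSeq, and 68.2% to 78.0% of aligned coding bases were identical between pairs. No 50-base stretch of the MYC2 transcript occurred in MYC3 or MYC4, nor any of MYC3 in MYC4.

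All of the calls among the 8 genes were of output genes at 48 h. CORI3 (AT4G23600, chromosome 4, 12310379 to 12313212) stood at 1.67 and 2.08 FPKM at 3 h, 3.96 and 3.97 FPKM at 24 h and 6.97 and 23.9 FPKM at 48 h, control first. The groups were thus nearly level at 24 h and far apart at 48 h. At 48 h CORI3 rose 3.42-fold, or by 1.78 on the log2 scale (implied error 0.31), with a q of 0.0221 in the authors' deposited table. Only 0.371% of tested rows with a fold change had a higher one.

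CLH1 (AT1G19670, chromosome 1, 6803486 to 6805092) was the most abundant of the 5 outputs in each group. It stood at 18.7 and 20.5 FPKM at 3 h, 21.1 and 18.9 FPKM at 24 h and 22.9 and 41.5 FPKM at 48 h. At 48 h CLH1 rose 1.81-fold, with a log2 fold change of 0.86, an implied error of 0.27 and a q of 0.0221 in the authors' deposited table. This call rests on the deposited p-value of 5e-05, the smallest the table holds. When its deposited statistic, 3.17, was taken as a normal deviate instead, its q was 0.620.

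TAT3 (AT2G24850, chromosome 2, 10582074 to 10585216) had the widest gap of the 8 genes and was not called. It stood at 0.016 and 0.0741 FPKM at 3 h and at 0.0901 and 0.0343 FPKM at 24 h, where the authors' deposited tables mark it as not tested. At 48 h the controls stood at 0.148 FPKM and the volatile group at 11.3 FPKM. Of tested rows with a fold change, 0.0928% lay below that control level, and the volatile value was close to their middle. The 7249 untested rows of that time do not enter these shares. TAT3 itself may have entered the tested rows only through its volatile value. The ratio was 76.7 and the log2 fold change 6.26 (95% interval from the implied error, 4.30 to 8.22), which ranked 3 of 19389 tested rows. The authors' deposited table gave a p of 0.001 and a q of 0.202. Taking the statistic, 6.26, as a normal deviate gave a q of 9.24e-07, so the call depends on which deposited quantity is used. With a pseudocount of 1 FPKM the log2 fold change was 3.43.

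VSP1 (AT5G24780, chromosome 5, 8507590 to 8509201) was low and was the only member with an unadjusted p under 0.05 at 24 h. It stood at 1.23 and 0.963 FPKM at 3 h, 3.604 and 1.10 FPKM at 24 h and 3.05 and 3.38 FPKM at 48 h, control first. At 24 h the volatile value was thus less than the control value, while at 48 h the groups were close. The log2 fold change at 24 h was -1.71 with an implied error of 0.59, and the authors' deposited table gave a p of 0.0004 and a q of 0.215.

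VSP2 (AT5G24770, chromosome 5, 8500468 to 8502224) was also low. It stood at 1.33 and 1.21 FPKM at 3 h, 0.609 and 0.836 FPKM at 24 h and 0.829 and 2.15 FPKM at 48 h. Its log2 fold change at 48 h was 1.37 with an implied error of 0.60, a ratio of 2.59, and the authors' deposited table gave a p of 0.00375 and a q of 0.547. Neither VSP gene passed at any time, and whether the genes differed from each other was not tested.

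**Figure D1:**
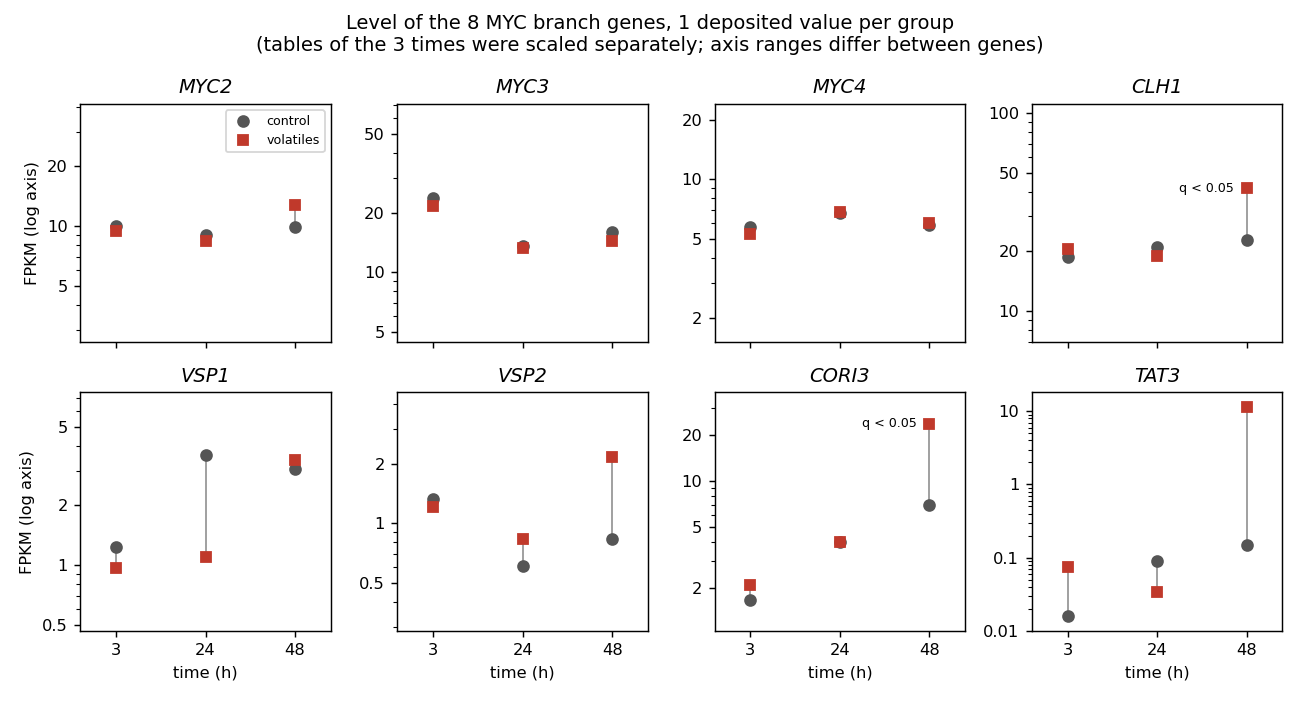
FPKM (log axis) of each of the 8 genes at 3, 24 and 48 h, with circles for control, squares for volatiles and a line joining both groups of a time. Among tested values the widest gap is that of TAT3 at 48 h, its values at 3 and 24 h lie under 0.1 FPKM and were not tested, and only CORI3 and CLH1 at 48 h had a q-value under 0.05.

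VSP1 and VSP2 lie in tandem on the minus strand, with 5365 bases and no other protein-coding gene between them. Their coding sequences were identical at 90.4% of aligned bases. Of the 1269 stretches of 50 bases in the longest VSP1 transcript, 5 occurred in that of VSP2, a share of 0.394%. Read length and the handling of reads that match both genes are not given in the sources used here. An exchange of reads between VSP1 and VSP2 is therefore possible, its size is unknown, and their separate values are uncertain to that extent. Their upstream windows also align over the stretch printed here, where 131 of 146 aligned bases were identical. In VSP1 a run of 15 bases had no counterpart in VSP2, and this run reached into the CACGTT word in capitals.
VSP1 (chr5:8509274-8509434, minus strand): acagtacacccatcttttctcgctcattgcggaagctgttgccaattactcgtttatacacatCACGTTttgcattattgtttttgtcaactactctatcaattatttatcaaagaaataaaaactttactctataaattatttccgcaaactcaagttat
VSP2 (chr5:8502225-8502378, minus strand): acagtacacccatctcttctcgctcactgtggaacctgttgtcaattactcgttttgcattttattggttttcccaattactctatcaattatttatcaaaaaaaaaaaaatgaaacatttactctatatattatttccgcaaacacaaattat

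Counted together, 2 of the 8 genes rose at 48 h and none fell. The 8 were chosen with earlier results of these data known, so the counts here are descriptions. Of all tested rows at that time 0.252% were called, 0.216% as higher and 0.0361% as lower. At an unadjusted p under 0.05 in the authors' deposited table, 5 of the 8 were higher at 48 h (MYC2, VSP2, TAT3, CORI3 and CLH1) and none was lower, against 1.55% and 1.22% of tested rows. MYC2 enters this count with a deposited p of 0.0495, and its 95% interval includes 0. Of the 8 log2 fold changes 7 were above 0, against 49.0% of all tested rows, and their median was 0.62, against -0.004 over all tested rows with a fold change. TAT3, at 0.148 FPKM in controls and 11.3 FPKM under the volatiles, was tested at 48 h alone. It may have entered the tested rows only through its volatile value. Its sign therefore does not inform these shares, and it also enters the median of the 8 and that of the outputs. The median was 1.37 for the 5 outputs and 0.04 for the 3 factors. Log2 fold changes of the outputs at 48 h ran from 0.15 for VSP1 to 6.26 for TAT3.

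At 3 and 24 h no member was called among the 7 tested. In all, 0.113% of tested rows were called at 3 h and 0.124% at 24 h in the authors' deposited tables. At an unadjusted p under 0.05 there was no member at 3 h, against 2.24% of tested rows, and 1 at 24 h, VSP1, against 2.96%, or 1.96% when only rows with the lower value under the volatiles are counted. Log2 fold changes above 0 were found for 2 of 7 members at 3 h and 3 of 7 at 24 h, against 47.6% and 45.3% of all tested rows. Taking the statistic as a normal deviate also gave 0 called members at both times. The medians over the 7 tested members were -0.12 at 3 h and -0.03 at 24 h, against -0.01 and -0.02 over all tested rows with a fold change. TAT3, untested at both times, had a higher value under the volatiles at 3 h and a lower one at 24 h, each under 0.1 FPKM.

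**Figure D2:**
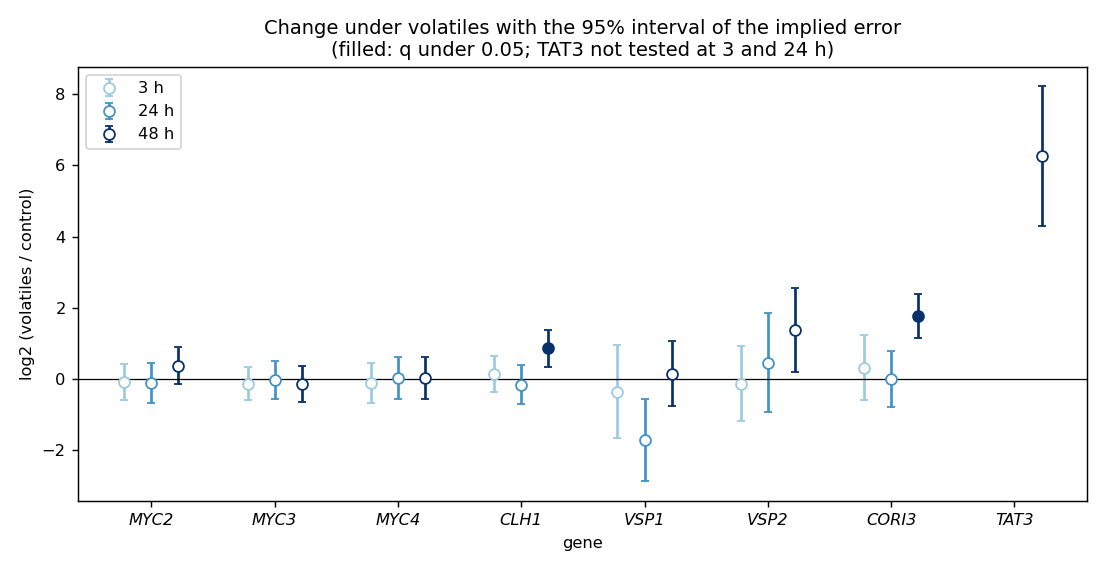
Log2 ratio of volatiles to control for each gene at 3, 24 and 48 h (light to dark blue), with bars for the 95% interval from the implied error and filled points for a q-value under 0.05. CORI3 and CLH1 at 48 h are filled at 1.78 and 0.86, and the open point of TAT3 stands at 6.26.

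The order of the 8 genes by FPKM, which is scaled by length and so allows genes to be set beside each other, was not the same in both groups at 48 h. In controls it ran CLH1, MYC3, MYC2, CORI3, MYC4, VSP1, VSP2 and TAT3. Under the volatiles CORI3 stood second, behind CLH1 and ahead of MYC3 and MYC2, and TAT3 stood next after MYC2, ahead of MYC4 and both VSP genes. Since the tables show no spread between libraries, it cannot be said which neighbours in these orders differ beyond their error.

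Whether a member's response differed between times was tested as the difference of log2 fold changes over the combined implied errors, a normal test with Benjamini-Hochberg adjustment over the 16110 to 16229 genes whose mean reached 1 FPKM at both times. No member passed. CORI3 came closest, with a response 1.77 higher at 48 h than at 24 h (log2 scale, 95% interval 0.78 to 2.76). By the errors implied in the authors' deposited tables its unadjusted p was 0.000441 and its adjusted p = 0.713. The CLH1 difference over the same times was 1.02 (interval 0.26 to 1.78), and that of VSP1 was 1.86 (interval 0.39 to 3.33). By the errors implied in the authors' deposited tables the adjusted p was 0.9999 for both. In this test 0.00618% of genes passed for 48 against 24 h, 0.0246% for 48 against 3 h and 0.0% for 24 against 3 h. LOX2, a further MYC branch output described below, passed for 48 against 3 h. Its response was 1.58 higher at 48 h (interval 0.88 to 2.29), with an adjusted p of 0.0405 by this test. For 48 against 24 h the adjusted p of LOX2 was 0.125, and it did not pass. An unadjusted p under 0.05 was reached by 0.445%, 0.456% and 0.298% of genes, which is fewer than the threshold itself would give, so a miss does not show that responses were alike. TAT3 could not enter, having been tested at 48 h alone, and VSP2 entered only for 48 against 3 h, where its difference was 1.502 (interval -0.08 to 3.09).

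**Figure D3:**
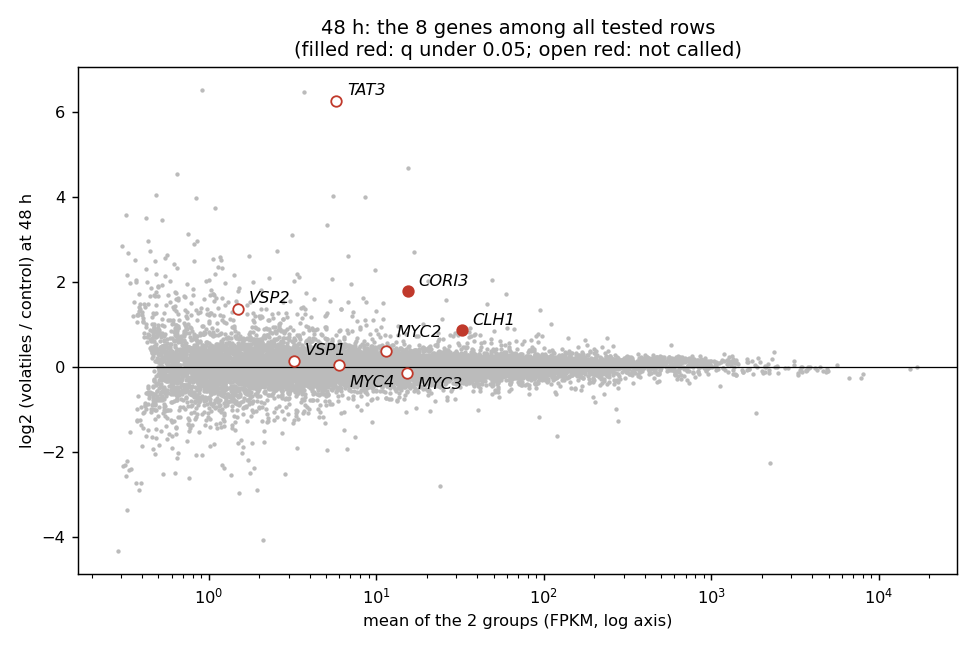
Log2 ratio of volatiles to control at 48 h against the mean of both groups in FPKM (log axis) for every tested row with a fold change (grey) and the 8 genes (red, filled where the q-value was under 0.05). TAT3 lies near the top of these rows at 6.26, CORI3 and CLH1 lie above the grey band at their level, and MYC3 and MYC4 lie within it.

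The machinery around the MYC factors was compared through gene lists that were written down with earlier results of these data known. Of the 5 closest relatives of the factors, JAM1, JAM2 and JAM3, which are repressors that compete with MYC2, were tested at each time and none was called. Their log2 fold changes ran from -0.17 to -0.0007 at 3 h, from -0.13 to 0.10 at 24 h and from -0.08 to 0.12 at 48 h. MYC5 and the related bHLH14 were not tested and stayed under 0.2 FPKM in each group. Of 5 genes that set the stability of MYC proteins, none was called at any time, and their medians lay between -0.02 and -0.01. Their log2 fold changes ran from -0.19 to 0.16 over all 3 times. Among these are the E3 ligase gene PUB10, with 20.2 and 18.8 FPKM at 48 h, and FER, a receptor kinase gene whose product marks MYC2 for breakdown, with 72.3 and 72.2 FPKM, control first.

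Of 16 genes for the coreceptor, the repressors and their partners, JAZ9, a JAZ repressor, rose at 48 h from 25.3 to 47.5 FPKM. Its log2 fold change was 0.91 with an implied error of 0.28 and a q of 0.0221 in the authors' deposited table. Taking its statistic as a normal deviate gave a q of 0.494, so that this call was lost. It was the only call among the 16 genes, all tested at 48 h, against 0.216% of all tested rows called higher. At 24 h JAZ9 stood at 36.1 and 23.6 FPKM and JAZ10 at 5.25 and 2.63 FPKM, control first, with q-values of 0.627 and 0.9996 in the authors' deposited table. JAZ2, another JAZ repressor, stood at 16.9 and 22.6 FPKM at 48 h with an unadjusted p of 0.0357 in the authors' deposited table. COI1, the coreceptor, stood at 13.5 and 13.6 FPKM at 48 h. The median of the list was 0.24 at 48 h, with 11 of 16 genes above 0, against 49.0% of all tested rows. Log2 fold changes of the list ran from -0.27 to 0.29 over 13 tested genes at 3 h and from -0.998 to 0.19 over 14 at 24 h, with no call at either time. At 48 h they ran from -0.22 to 3.13, the highest being that of JAZ8.

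Of 20 further genes known as outputs or targets of the MYC branch, 19 were tested at 48 h and 2 rose, against 0.216% of all tested rows. LOX2, a lipoxygenase of jasmonate synthesis, went from 27.6 to 90.4 FPKM, and ARGAH2, a jasmonate-induced arginase, from 30.9 to 52.4 FPKM with a log2 fold change of 0.76 and a q of 0.0221. Taking the statistic as a normal deviate gave a q of 1.91e-07 for LOX2 and of 0.959 for ARGAH2, whose call was lost. The list's median was 0.46, with 15 of 19 genes above 0, against 49.0% of all tested rows. JMT, ANAC019, NATA1 and JAL23 of this list were tested at 48 h alone. Their controls there were 0.243, 0.408, 0.0819 and 0.0982 FPKM and their volatile values 0.506, 1.03, 7.27 and 0.763 FPKM. Rows this low may be tested only where the volatile value is high, so their signs do not inform the comparison with all rows. Log2 fold changes of the list ran from -0.37 to 0.91 at 3 h, from -0.94 to 0.53 at 24 h and from -0.43 to 6.47 at 48 h. NATA1, an acetyltransferase gene that jasmonate induces, was like TAT3 in having controls near 0 at 48 h, at 0.0819 FPKM, and a much higher volatile value, 7.27 FPKM. The authors' deposited table gave NATA1 a p of 0.156 and a q of 0.9993. TGG1 and TGG2, which encode myrosinases, stood lower under the volatiles at 48 h, at 531.9 and 418.5 FPKM and at 88.2 and 65.6 FPKM, and neither was called. Their unadjusted p-values in the authors' deposited table were 0.0757 and 0.0151. At an unadjusted p under 0.05, 5 tested genes of the list were higher at 48 h and 1, TGG2, was lower, against 1.55% and 1.22% of tested rows. ANAC019 and JAL23, tested at 48 h alone, are among the 5. At 24 h none of the 15 tested genes of this list was called, and the median was -0.20. RNS1, a ribonuclease gene, stood at 8.95 and 13.8 FPKM at 3 h and at 5.84 and 3.51 FPKM at 24 h, control first, with unadjusted p-values of 0.005 and 0.0275 and q-values of 0.9998 and 0.9996. JR1, a jasmonate-responsive lectin gene, stood at 75.8 and 53.6 FPKM at 24 h, with an unadjusted p of 0.00955 and a q of 0.9996.

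Of 15 relatives of the output genes, 11 were tested at 3 h and 13 at 24 and 48 h, and none was called. AT4G23590, the aminotransferase gene that lies 714 bases before CORI3 on the same strand, stood at 1.17 and 0.782 FPKM at 48 h, control first, although 79.3% of its aligned coding bases match CORI3. No 50-base stretch of the CORI3 transcript occurred in it. CLH2, the other chlorophyllase gene, stood at 5.60 and 4.88 FPKM. SUR1, a C-S lyase of glucosinolate synthesis in the aminotransferase family, stood at 70.6 and 92.8 FPKM, with an unadjusted p of 0.0228 and a q of 0.9993. AT2G38600, of the acid phosphatase family of the VSP genes, stood at 0.798 and 1.95 FPKM with an unadjusted p of 0.049. The median of the 13 tested relatives at 48 h was -0.07. Log2 fold changes of the relatives ran from -0.38 to 0.64 at 3 h, from -0.29 to 0.58 at 24 h and from -0.58 to 1.29 at 48 h.

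Of 7 genes of the ERF branch, 3 were tested at 3 h and 6 at 24 and 48 h, and none of those was called. ERF1 was tested at no time, and the 3 PDF1.2 genes were not tested at 3 h. At 48 h the defensin genes PDF1.2a, PDF1.2b and PDF1.2c stood at 5.71 and 16.1 FPKM, 19.1 and 78.9 FPKM, and 0.905 and 9.20 FPKM, control first. Their unadjusted p-values in the authors' deposited table were 0.00275, 0.0087 and 0.008 and their q-values 0.445, 0.918 and 0.868. Thus 3 of 6 tested genes were higher at an unadjusted p under 0.05, against 1.55% of tested rows. ORA59, a regulator of this branch, stood at 4.97 and 6.03 FPKM. The 3 defensin genes are near-identical copies whose reads can be split in counting. Log2 fold changes of the list ran from 0.07 to 0.54 at 3 h, from -2.02 to 0.09 at 24 h and from -0.02 to 3.35 at 48 h. Its median at 48 h was 0.89, and no test compared it with that of the MYC branch outputs.

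**Figure D4:**
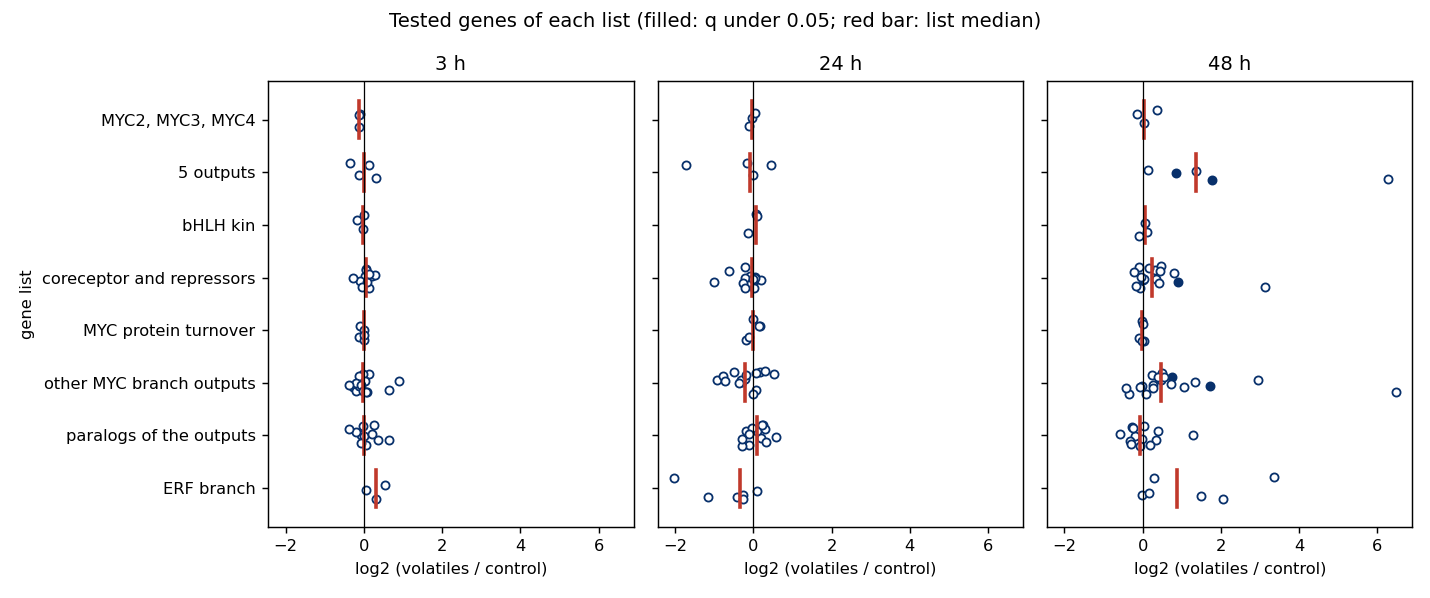
Log2 ratio of volatiles to control for the tested genes of each list at 3, 24 and 48 h, with filled points for a q-value under 0.05 and a red bar for the list's median. At 48 h the bar of the 5 outputs stands at 1.37, that of MYC2, MYC3 and MYC4 at 0.04 and that of the ERF branch at 0.89.

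Likeness was measured for CORI3, VSP1 and VSP2, the members tested at all 3 times whose log2 fold change reached 1 in size at any of them, as the Euclidean distance over the 3 log2 fold changes, among about 12300 genes tested at all 3 times whose mean reached 5 FPKM. For CORI3 the nearest was LOX2, at a distance of 0.26, with log2 fold changes of 0.13, 0.18 and 1.71 at 3, 24 and 48 h. The next, AT1G71740 and AT1G58150, were at 0.69 and 0.72. For VSP2 the nearest were AT1G71740, PLA2A (a patatin-like phospholipase gene) and AT3G51450, at 0.15, 0.24 and 0.27. For VSP1 they were AT1G66100, LSU3 (a sulfur deficiency marker) and PDF2.5 (a defensin gene), at 0.37, 0.64 and 0.65. These distances rest on 3 values per gene and are descriptions.

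As a check of the labelled tissue, all 4 shoot markers and all 4 root markers were detected in every group, with none at 0. Summed shoot markers (RBCS1A, LHCB1.3, LHCB2.1 and FRO6) ranged from 35087 to 36036 FPKM in controls and from 32707 to 36720 FPKM under the volatiles. Summed root markers (IRT1, PHT1;1, NRT2.1 and RHD6) ranged from 142.9 to 199.4 FPKM in controls and from 176.0 to 186.4 FPKM under the volatiles. RBCS1A and LHCB1.3 make up most of the shoot sum and PHT1;1 most of the root sum, so the sums hide changes of the lower markers. Log2 fold changes were below 0 for 2, 4 and 4 of the 4 shoot markers at 3, 24 and 48 h, and for 1, 3 and 1 of the 4 root markers. At 48 h, where CORI3 and CLH1 rose, the root sum was 142.9 and 176.0 FPKM, control first, and the shoot sum 36036 and 35102 FPKM. At that time IRT1 and NRT2.1 rose, FRO6 fell, and the other 5 markers were not called. Taking the statistic as a normal deviate gave q-values of 0.959, 0.565 and 0.99997 for IRT1, NRT2.1 and FRO6, so that these calls were lost. Their part in the results for the MYC branch genes was not tested.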

How the data were processed

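Labels give 12 libraries of whole seedlings, 2 for each of 6 groups. Per the submitters' processing notes, Trimmomatic 3.6 and TopHat were used with build TAIR10. Per the file headers, the deposited tables have Cuffdiff's column layout, and no program name is given in the sources used here. They hold FPKM values computed by the authors, 1 per gene and group, with the authors' deposited statistic (a score), p-value and q-value. The time of a table is known only from its name. No fit over libraries was possible.

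Log2 fold changes were computed again from FPKM with no pseudocount (Python 3.11.15, pandas 2.3.3, scipy 1.17.1), and none was given against 0. The test between times was run over rows of a single gene. Sequences and gene bounds are from RefSeq TAIR10.1, matched by locus tag (Biopython 1.88). No protein sequence is shown. Members and lists were chosen with earlier results of these data known. Named genes are the 8 members, list genes with a q-value under 0.05, up to 2 per list and time by smallest p, neighbours of VSP1, VSP2 and CORI3, and the 3 genes nearest to a member by fold changes. COI1, FER, NATA1, TGG1, TGG2, CLH2, PDF1.2b, MYC5, bHLH14, JAZ7, JAZ8, JMT, ANAC019, JAL23 and AT2G38240 were named in addition, after their values were seen. Values of other list genes at times the rule did not choose were added likewise. Of the genes the rule gives, those with no call and no unadjusted p under 0.05 are in general given by their list's range only.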

Additional observations from a re-analysis of the deposited data

How the results depend on the processing

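The median of the members kept its sign at each time under a pseudocount of 0.1 or 1, centring, quantile normalization and a filter on mean FPKM. At 48 h the mean, into which TAT3 enters with 6.26, was 1.34 and the median 0.62. The count of called members was 0, 0 and 2 at 3, 24 and 48 h under each adjustment tried, with a q threshold of 0.10 and with the deposited statistic taken as a normal deviate. Under the last of these the 2 at 48 h were TAT3 (q = 9.24e-07) and CORI3, and CLH1 was lost (q = 0.620). The same reading, applied to the 6 called list and marker genes after seeing the data, left LOX2 called and lost the other 5. No member passed the test between times with no filter or with quantile normalization. The scalings tried moved the median of all tested rows by less than 0.1 on the log2 scale. Leaving out each replicate was not run, since the tables hold 1 value per group. No paired analysis was possible because the tables carry no replicate numbers. Depth is unknown, so the precision of values under 1 FPKM, TAT3 and VSP2 among them, cannot be given.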

Other observations

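Among the 16 tested rows that reached 3 on the log2 scale at 48 h, chosen after their values were seen, 3 were called in the authors' deposited table, and the median control level of the 16 was 0.124 FPKM. Untested rows were left out, and rows chosen for a high ratio tend to have low controls, so this level partly follows from the choice. Of tested rows, AT2G38240, NATA1 and TAT3 had the 3 highest fold changes at 48 h. These were 6.52, 6.47 and 6.26 on the log2 scale, with control values of 0.0196, 0.0819 and 0.148 FPKM. Their volatile values were 1.80, 7.27 and 11.3 FPKM and the p-values that the authors' deposited table gives them 0.254, 0.156 and 0.001. JAZ8, a JAZ repressor gene, was also in this set, at 0.154 and 1.35 FPKM, control first.

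The row of MYC3 had other bounds in the table for 3 h (TAIR10 chromosome 5, 18974102 to 18976312, 2211 bases) than at 24 and 48 h (18974231 to 18976009, 1779 bases). FPKM is scaled by transcript length, so the level of MYC3 at 3 h stands on another gene model than at 24 and 48 h. The other 7 members had the same bounds in all 3 tables.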
